A study of Mus musculus with 300 samples.

Results

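The dimmest ID4-EGFP spermatogonia, quartile Q4 of EGFP brightness, were the 72 cells whose label places them in Q4, out of 300 cells in all. The brighter quartiles held 79 cells in Q1, the brightest, 78 in Q2 and 71 in Q3. The cells came from untreated adult mice carrying an EGFP reporter of the Id4 locus. For each of 4 preparations the testes of several mice were pooled and dissociated, germ cells were enriched on Percoll, and cells with bright CD9 and EGFP were sorted and captured on Fluidigm C1 chips, which isolate and image single cells. Single-cell RNA-seq libraries were made from polyadenylated RNA, and EGFP was measured in each captured cell by imaging on the chip. Q4 held 18, 20, 15 and 19 cells in preparations 1 to 4, and each preparation supplied all 4 quartiles, so all groups shared genotype, sort and chip. All Q4 cells are reporter positive: they are the dim end of a sorted pool, and cells without EGFP are not represented.

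Adult spermatogenesis starts from a small pool of undifferentiated spermatogonia. Stem cells in this pool respond to GDNF from Sertoli cells through the receptor pair GFRA1 and RET and maintain the ETS factor ETV5, among other targets. Their progenitor daughters carry less of this programme and gain sensitivity to retinoic acid through the receptor RARG. Retinoic acid then switches on Stra8 and the receptor tyrosine kinase Kit, and the SOHLH1 and SOHLH2 transcription factors help drive the differentiating state.

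Levels are means over the cells of one preparation and quartile of log2(FPKM + 1), where FPKM counts fragments relative to transcript length and sequencing depth, and n = 4 preparations throughout. A Q4 cell held 5356 ± 810 genes at 1 FPKM or above, and a cell of Q1 to Q3 held 5533 ± 803 (SD, n = 4). The difference of -177 genes was not larger than relabeling of quartiles within preparations gives (exact two-sided permutation p = 0.176). Single Q4 cells ranged from 2934 to 7636 genes, and preparation 1 was the lowest with 4322. Depth relative to a common scale, read from the steps between low values, was 1.01 ± 0.121 in Q4 and 1.03 to 1.04 in the other quartiles.

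The label was checked against 5 genes that mark progenitor and differentiating spermatogonia: Upp1, which codes for uridine phosphorylase, Sohlh1, Crabp1, which codes for a cytosolic retinoic acid-binding protein, Kit and Stra8. Among Q4 cells, 57 of 72 had at least 1 FPKM of Upp1, 65 of Sohlh1, 70 of Crabp1, 34 of Kit and 50 of Stra8. All 5 genes stood together in 24 cells, 4 in 22, 3 in 17, 2 in 8 and 1 in 1 cell, and no Q4 cell lacked all 5. Cells carried a mean of 2.96, 3.29 and 3.39 of these genes in Q1, Q2 and Q3, and of 3.82 ± 0.48 in Q4 (SD, n = 4). Preparation 4 stood above the others in Q4 with 4.53, against 3.67, 3.55 and 3.53 in preparations 1 to 3. The germ-cell RNA-binding proteins Dazl and Ddx4, which every cell of this lineage should express, were at 1 FPKM or more in all 72 cells, with Dazl between 395.5 and 2417 FPKM.

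**Figure D1:**
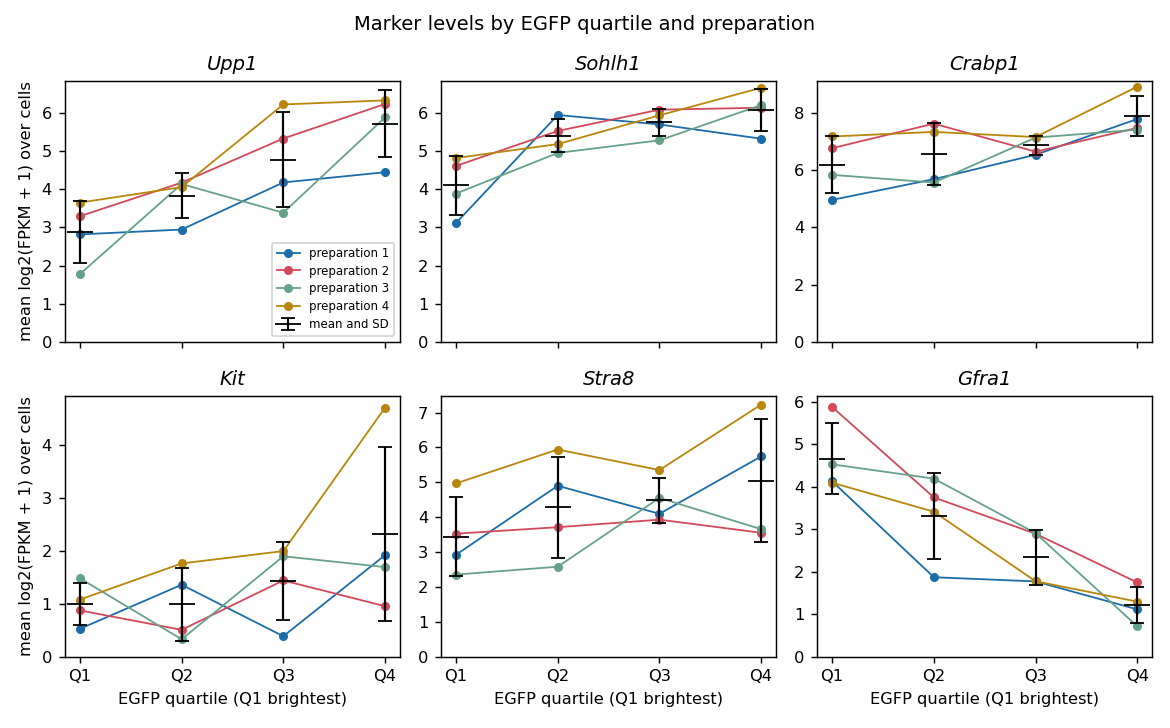
Mean log2(FPKM + 1) over cells of 6 marker genes (y axis) by EGFP quartile (x axis), with 1 coloured line per preparation and a black dash and bar for the mean and SD over the 4 preparations. The mean of Upp1 runs from 2.89 in Q1 to 5.73 in Q4 and that of Gfra1 from 4.66 to 1.22, while the 4 points of Kit in Q4 spread from 0.95 to 4.70.

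Upp1 and Crabp1 were higher in Q4 than in the brighter cells, and Sohlh1, Kit and Stra8 did not pass the test. The comparison asks what sets the dimmest cells apart from the remaining reporter-positive pool. Upp1 stood at 4.45, 6.24, 5.89 and 6.34 in Q4 of preparations 1 to 4 and at 3.31, 4.27, 3.10 and 4.65 in Q1 to Q3. Q4 was higher in every preparation, although preparation 1 of Q4 lay below the brighter cells of preparation 4. The Upp1 difference was 1.90 on the log2(FPKM + 1) scale (SE 0.33; limma adjusted p = 0.00511). Crabp1 stood at 7.80, 7.49, 7.42 and 8.93 in Q4 against 5.74, 7.02, 6.19 and 7.23, without overlap. Its difference was 1.37 (SE 0.27; limma adjusted p = 0.0117). Both calls depended on the setting: Upp1 passed in 10 of 12 alternative analyses and Crabp1 in 7 of 12, with limma adjusted p up to 0.128 and 0.206. No single preparation ended the call of Upp1, and leaving out preparation 1 or 4 ended that of Crabp1.

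Sohlh1 stood at 5.33, 6.15, 6.21 and 6.67 in Q4 against 4.93, 5.42, 4.71 and 5.32 in Q1 to Q3, a difference of 1.00 (SE 0.29; limma adjusted p = 0.0862). Kit stood at 1.92, 0.95, 1.69 and 4.70 against 0.76, 0.94, 1.24 and 1.61. Preparation 4 was far above the other preparations and preparation 2 was level with its own brighter cells. The Kit difference was 1.18 (SE 0.36; limma adjusted p = 0.115). It passed with the number of genes per cell as a covariate, at 1.74 (limma adjusted p = 0.0113), and was 0.54 without preparation 4. Stra8, a gate to meiotic entry that retinoic acid induces, stood at 5.74, 3.55, 3.66 and 7.23 against 3.98, 3.72, 3.16 and 5.42. The groups overlapped, and the Stra8 difference was 0.97 (SE 0.36; limma adjusted p = 0.210). Stra8 passed on the log2 of mean FPKM, at 1.49 (limma adjusted p = 0.00836), and stood at 0.63 without the cells that matched another cell type. The quartile means of Upp1 were 2.89, 3.83, 4.78 and 5.73 from Q1 to Q4, in nearly even steps. For Kit they were 0.99, 0.99, 1.43 and 2.32, with the widest step last. The step from Q3 to Q4 alone was 0.95 for Upp1, 1.03 for Crabp1, 0.33 for Sohlh1, 0.89 for Kit and 0.56 for Stra8, and limma called none of these.

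Over all 10411 genes tested, 123 passed a limma adjusted p of 0.05 between Q4 and the mean of Q1 to Q3, which is 1.18% of the genes. Of these, 29 (0.279%) were higher in Q4 and 94 (0.903%) were lower, 121 of the 123 had one sign in all 4 preparations, and 1389 genes had an unadjusted p under 0.05. The median difference over all genes was -0.05. When each mean was centred on its median gene, the split became 51 higher and 52 lower. Leaving out single preparations left 59, 73, 21 and 18 called genes for preparations 1 to 4, of which 47, 57, 19 and 17 were among the 123. Without the cells that matched another cell type, 59 genes were called, 57 of them among the 123.

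The 10 largest differences among genes higher in Q4 were those of Upp1, Cited1, Crip2, Bnip3, Lonrf3, Gps2, Crabp1, Ndufa12, Aurka and Ndrg4. Cited1, a transcriptional coregulator, was at 3.73, 1.28, 2.57 and 5.14 in Q4 and at 1.13, 1.25, 1.26 and 2.22 in Q1 to Q3. Preparation 2 showed nearly no difference, and Cited1 averaged 1.72 higher (SE 0.36; limma adjusted p = 0.0165). Bnip3, a mitochondrial outer-membrane protein of mitophagy, was at 6.65, 5.85, 6.20 and 7.03 against 4.80, 4.99, 4.55 and 5.22, with no overlap. Its difference was 1.54 (SE 0.28; limma adjusted p = 0.00511). Aurka, the mitotic kinase Aurora A, was at 3.64, 4.52, 2.88 and 6.09 against 2.46, 3.12, 2.36 and 3.94, a difference of 1.31 (SE 0.30; limma adjusted p = 0.0296). Ndufa12, an accessory subunit of NADH dehydrogenase, was 1.32 higher (limma adjusted p = 0.0404). Crip2, a LIM domain protein, was 1.71 higher, Lonrf3 1.42, Gps2, a corepressor subunit, 1.37 and Ndrg4 1.24, with limma adjusted p from 0.0192 to 0.0373. Ndrg4 was no higher than in Q3, at a mean level of 5.28 in Q4 and 5.33 in Q3. Without preparation 4, Upp1 was the one of these 10 genes that passed. Upp1 and Bnip3 passed without preparation 1, Upp1, Bnip3 and Crabp1 without preparation 3, and all but Ndufa12, Aurka and Ndrg4 without preparation 2.

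Genes lower in Q4 were led by members of the stem cell and GDNF-responsive lists. Tcl1, a coactivator of AKT signalling, was at 1.92, 4.10, 1.97 and 1.04 in Q4 and at 5.72, 6.19, 5.75 and 6.01 in Q1 to Q3. It differed by -3.66 (SE 0.35; limma adjusted p = 1.44e-06). Dusp6, a phosphatase of ERK that ERK signalling itself induces, was at 0.91, 2.98, 1.10 and 0.91 against 4.42, 4.71, 4.59 and 4.52. The Dusp6 difference was -3.08 (SE 0.34; limma adjusted p = 8.16e-06). Etv5 was at 1.22, 2.27, 0.74 and 1.15 against 3.74, 4.60, 4.74 and 4.11, a difference of -2.95 (SE 0.30; limma adjusted p = 2.23e-06). Gfra1 was at 1.12, 1.75, 0.72 and 1.30 against 2.59, 4.17, 3.88 and 3.10, a difference of -2.21 (SE 0.32; limma adjusted p = 0.00054). Preparation 2 was the highest of the Q4 preparations in each of these 4 genes. Tcl1, Dusp6, Etv5 and Gfra1 passed in all 12 alternative analyses. The remaining large decreases were in the neurofilament gene Nefm (-2.19), Dpysl2 (-2.08), the phosphatase Ptpn13 (-2.02), Arhgap26 (-1.86), the homeobox gene Hhex (-1.86) and the peroxisomal protease gene Lonp2 (-1.79), of which Hhex did not pass without preparation 3 and Lonp2 without preparation 4.

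Gene lists for the tissue were read by their counts against these backgrounds. Of 15 tested stem cell associated genes, 7 were lower and 0 higher, with a median difference of -1.05, and Tcl1, Etv5, Gfra1, Ret, the GDNF co-receptor, at -1.41 and the forkhead gene Foxc2 at -1.57 were among them. Of 13 tested genes that respond to GDNF and FGF, 5 were lower and 0 higher, including the feedback inhibitors Spry4 at -1.56 and Spry2 at -1.50. These lists share Etv5 and other members. The calls of Spry2, Spry4 and Ccnd2 were lost without preparation 3 or 4, that of Foxc2 without preparation 3 and that of Ret without preparation 2, 3 or 4. Of 15 undifferentiated and progenitor genes, Upp1 was higher and Glis3 lower (-1.19). Neurog3 (0.23), Sox3 (0.42), Rarg (0.70), Zbtb16 (-0.67) and Nanos3 (0.01) did not pass.

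Of 12 genes of differentiating spermatogonia, Crabp1 was higher and Ccnd2, a cyclin that drives entry into the cell cycle, was lower (-1.43). The median of the 12 was 0.33. The de novo DNA methyltransferase gene Dnmt3b stood 1.24 higher without passing (limma adjusted p = 0.0522), and Sohlh2 differed by 0.47. Of 15 retinoic acid pathway genes, Crabp1 was the one called. Of 17 meiotic prophase genes none was called by limma, and 6 had an unadjusted p under 0.05. Their median was 0.52, and 13 of the 17 differences were positive, with Sycp3, an axial element protein, at 0.60 (limma adjusted p = 0.0766). Of 20 genes of G2 and mitosis Aurka was called. Their median was 0.31, against -0.05 over all genes tested, with 18 positive, and Mki67 at 0.08. The mean level over these genes was 4.45, 3.98, 3.92 and 4.44 from Q1 to Q4, so Q4 was level with Q1. The numbers of positive differences in these lists were not tested. Of 18 S phase genes none was called by limma and 1 had an unadjusted p under 0.05, with a median of -0.06. Among 13 immediate early genes, which dissociation can induce, Fos (-1.70) and Egr2 (-1.28) were lower. Of 15 glycolytic genes Pkm was lower (-0.87), and of 12 mitophagy and apoptosis genes Bnip3 was higher. The calls of Fos and Egr2 were lost without preparation 3 or 4, and those of Pkm and Glis3 without any 1 preparation. None of 16 chaperone, 8 translation elongation or 11 germ-cell RNA-binding genes was called by limma, and 0, 0 and 2 of them had an unadjusted p under 0.05.

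**Figure D2:**
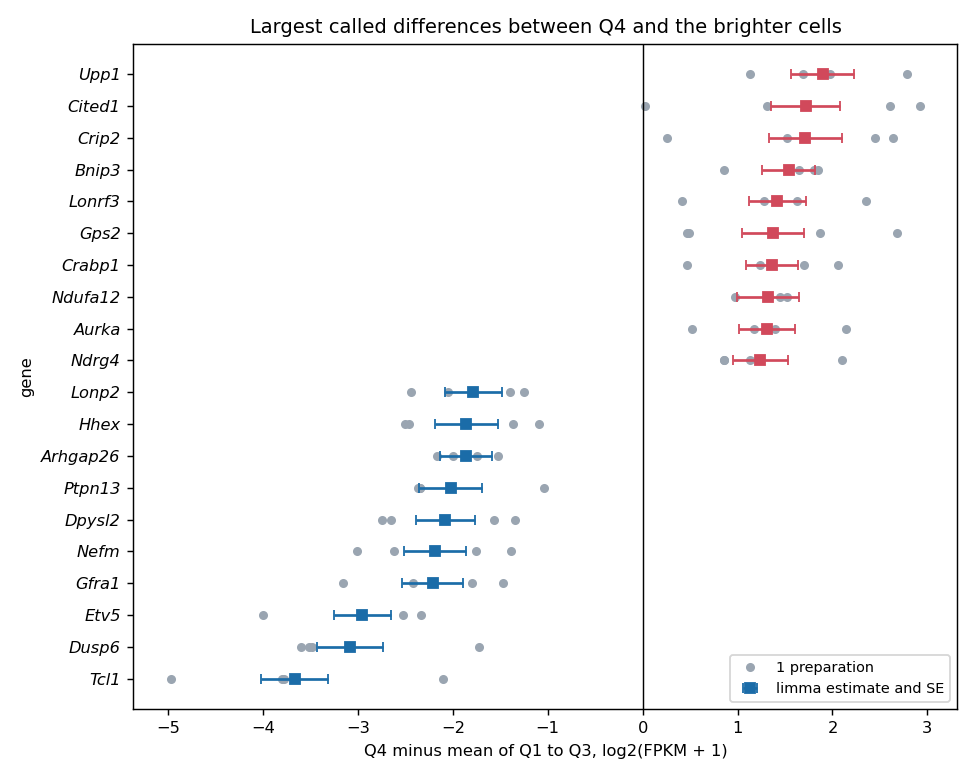
Difference of Q4 from the mean of Q1 to Q3 (x axis, log2(FPKM + 1)) for the 10 largest called differences in each direction (y axis), with the limma estimate and SE as squares and bars and each preparation as a grey point. Tcl1 lies farthest left at -3.66 and Upp1 farthest right at 1.90, and the grey points of Cited1 spread the most among the higher genes.

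Between Q4 and Q3, the nearest quartile in brightness, limma called 1 gene of 10411 (0.00961%), the heparan sulfate proteoglycan Sdc4 (syndecan-4), and 685 genes had an unadjusted p under 0.05. Sdc4 stood at 9.59, 10.35, 9.93 and 9.24 in Q4 of preparations 1 to 4, and the step down from Q3 was 0.87, 0.74, 0.80 and 1.47. The difference from Q3 was -0.97 (SE 0.15; limma adjusted p = 0.00757), and from Q1 to Q3 it was -0.99 (SE 0.12; limma adjusted p = 4.03e-05). The call against Q3 was lost without preparation 3 or 4, without cells that matched another cell type (limma adjusted p = 0.0811), with median centring (limma adjusted p = 0.164), on the log2 of mean FPKM, with no filter on low values and with no preparation block, while the call against Q1 to Q3 passed in 11 of 12 alternatives. For genes of the stem cell programme the step from Q3 was -1.12 for Gfra1 and -1.67 for Etv5, and Cited1 stood 1.52 above Q3, none of them called. Both comparisons use the same Q4 cells. Among these, 6 of 72 had Sdc4 below 100 FPKM, which no cell of Q1 to Q3 had. The part of these 6 cells in the lower mean was not tested, so the step need not hold for Q4 cells in general.

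The most abundant transcripts of Q4 cells came from mitochondrial respiration, ribosomes and protein turnover. Levels between genes are compared here on the FPKM scale, which accounts for transcript length. Cox6a1, a nuclear-encoded subunit of cytochrome c oxidase, was first with a level of 11.75 ± 0.15 (SD, n = 4) and a mean of 3781 FPKM. It was at 11.80, 11.64, 11.93 and 11.61 in Q4 and at 11.53, 11.31, 11.19 and 11.44 in Q1 to Q3, without overlap. The Cox6a1 level was 0.37 higher (SE 0.08; limma adjusted p = 0.0249), a call lost without preparation 2, 3 or 4. Next came polyubiquitin Ubb at 11.28, the ribosomal protein Rpl41 at 11.23, the co-chaperone Ptges3 at 11.21 and, sixth by level, the metallothionein Mt1 at 11.11. In Q1, Q2 and Q3, Cox6a1 ranked 2, 1 and 1 by level and Mt1 ranked 1, 2 and 4. Mt1 was at 11.12, 11.29, 11.15 and 10.89 in Q4 and at 11.47, 11.50, 11.37 and 11.31 in Q1 to Q3. The Mt1 difference of -0.30 did not pass (limma adjusted p = 0.0594).

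Among the rest of the 20 most abundant genes were Cox4i1, Ndufb9, Rpl4, Rpl8, Psmb2, Eef1a1, Rpl32, Mdh2, Dazl, Hsp90ab1, Sod1 and Tuba3a. Dazl, the germ-cell RNA-binding protein above, stood among them at a level of 10.17. Cytosolic ribosomal proteins (85 genes) made up 5.21 ± 0.59% of the FPKM sum in Q4, against 4.91% in Q1, 5.11% in Q2 and 5.18% in Q3. Subunits of cytochrome c oxidase and NADH dehydrogenase (63 genes) made up 4.75 ± 0.23% in Q4, against 4.35% in Q1, 4.50% in Q2 and 4.32% in Q3. Proteasome subunits (40 genes) made up 2.35% and chaperones (16 genes) 1.34% in Q4. These shares were not tested. Sdc4 ranked 30 by level in Q4, against 9 in Q1, 9 in Q2 and 8 in Q3.

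The genes that varied most between Q4 cells, for their mean level on the log scale, were Stra8 and Sdc4. Variation was taken as the SD over cells of log2(FPKM + 1), less a smooth trend of that SD on the mean over genes. The SD over Q4 cells was 3.99 for Stra8, 2.28 for Sdc4, 3.39 for Enc1, an actin-binding adaptor, and 3.53 for Upp1. Nanos3, an RNA-binding protein of undifferentiated spermatogonia, had an SD of 3.53 over cells, the histone gene Hist1h4d 3.51 and the small nucleolar RNA host Snhg9 3.63. The remaining named genes were Mir686, Ppil3, Rhox10, Exosc9, Gmnn, Timm10, Nubp2, Churc1, Snrnp25, Coa3, Ndufa1, Tktl1 and Trappc2l. Mir686 was listed at 0 in 62 of 72 cells. The SD weights cells at 0 heavily: ranked instead by the squared coefficient of variation of FPKM over its trend, 2 of 20 genes were shared, Stra8 and Mir686, and Sdc4 was not among the 20.

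Against the brighter quartiles, Sdc4 was the 1 gene of 10411 (0.00961%) that limma called as wider in Q4, and 593 genes had an unadjusted p under 0.05. Its SD over cells was 1.81, 2.01, 3.11 and 2.20 in Q4 of preparations 1 to 4, and its means from Q1 to Q4 were 0.75, 0.65, 0.90 and 2.28. Less the trend, the spread was 1.11 wider (SE 0.18; limma adjusted p = 0.0343). The same 6 cells with Sdc4 below 100 FPKM enter this SD, so it is not a result separate from the lower mean. The call was lost without preparation 2, 3 or 4, with a pseudocount of 0.1, with no filter on low values and with no preparation block, and it held without the cells that matched another cell type. The spread of Stra8 was 0.80 wider in Q4 without passing (limma adjusted p = 0.387), and the values for Enc1, Upp1 and Crabp1 were 0.49, 0.47 and -0.69, none called.

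**Figure D3:**
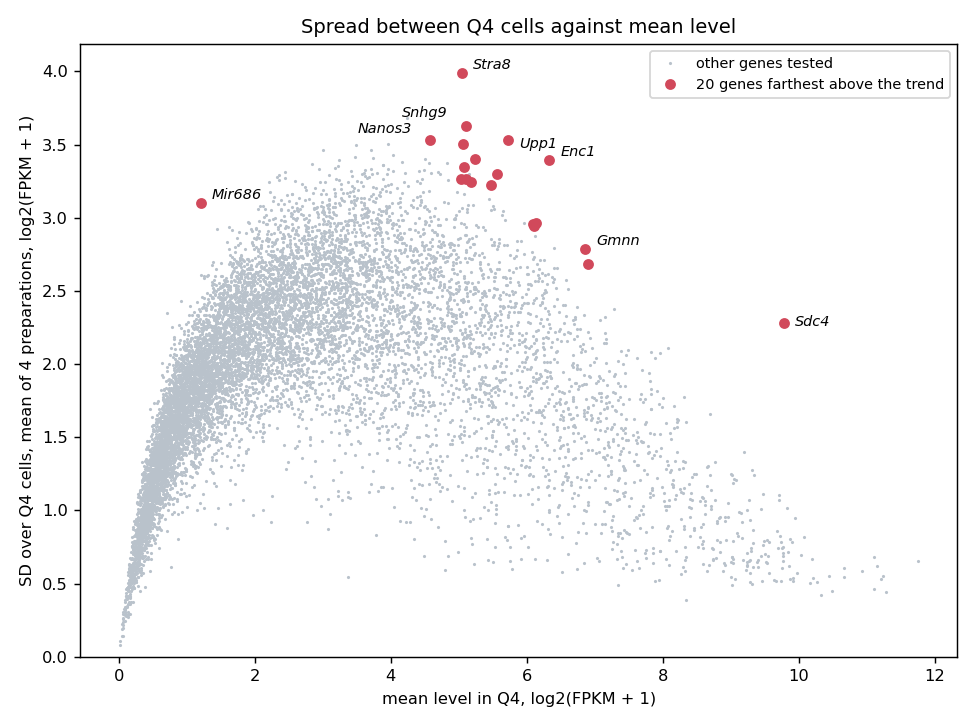
SD of log2(FPKM + 1) over Q4 cells, as a mean of 4 preparations (y axis), against the mean level in Q4 (x axis) for all tested genes (grey) and the 20 named genes farthest above the trend (red). Sdc4 stands alone among highly expressed genes, with an SD of 2.28 at a level of 9.78.

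Some Q4 cells held less Sdc4 than any brighter cell. Across the 228 cells of Q1 to Q3 the lowest Sdc4 value was 182 FPKM, with a median of 1888. In Q4 the lowest was 0.478, the median 1201 and the highest 4343 FPKM. In Q4, 6 cells fell below 100 FPKM, at 7.40, 4.50, 0.478, 62.1, 85.99 and 3.85. The next Q4 values were 113, in a cell with Kit at 90.9 FPKM, and 166, in a cell with Kit at 0. Both were also below 182 FPKM, so the cut of 100 FPKM does not mark a gap. Preparations 1 and 2 each held 1 of these 6 cells and preparations 3 and 4 held 2 each. The Q4 medians of Sdc4 in preparations 1 to 4 were 1021, 2056, 2390 and 834 FPKM and those of Q3 were 1494, 2125, 1896 and 1662. In preparation 3 the Q4 median was thus the higher one, while the Q4 mean level was lower.

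**Figure D4:**
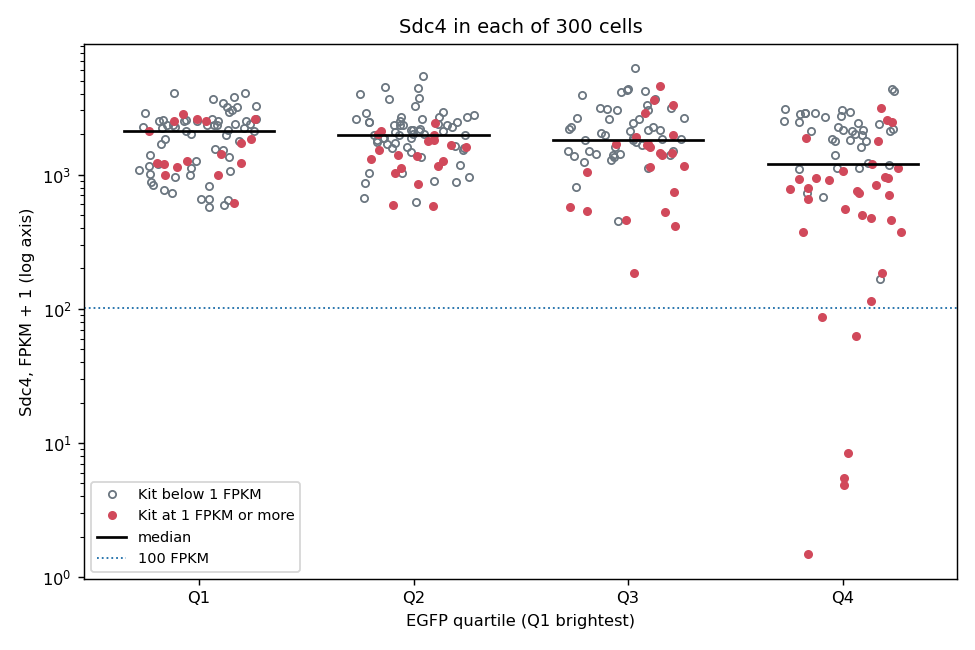
Sdc4 in each of the 300 cells (y axis, FPKM + 1, log scale) by EGFP quartile (x axis), filled where Kit is at 1 FPKM or more, with the median as a black line and 100 FPKM dotted. The 6 cells below 100 FPKM are all in Q4 and all filled, and the lowest cell of Q1 to Q3 is at 182.

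The 6 cells with low Sdc4 were chosen after their values were seen and are described without a test. All 6 had Kit, between 6.86 and 141 FPKM, while 28 of the other 66 Q4 cells did. All 6 had Stra8, from 1.76 to 923 FPKM, and all 6 had Cited1, from 74.2 to 384 FPKM, against 33 of 66 for Cited1. Dmrtb1, a DM-domain factor that times the mitosis to meiosis switch, was present in 5 of 6 and in 5 of 66. Nanos3 was at 1 FPKM or more in 0 of 6 and 48 of 66, Enc1 in 1 of 6 and 57 of 66, Pxt1, a germ cell gene, in 1 of 6 and 57 of 66, and Upp1 in 2 of 6 and 55 of 66, with 3.61 FPKM as its highest value in the 6. Dazl, Ddx4, Crabp1, Sycp3 and Mki67 were present in all 6, and none of the 6 matched another cell type. Beside Kit and Stra8, the 6 cells thus had little or no Nanos3, Enc1 and Upp1.

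Q4 held a mixture of cells by the stem cell marker Gfra1 and the differentiation marker Kit, each scored at 1 FPKM. Kit without Gfra1 was found in 26 of 72 cells, with 6, 3, 4 and 13 in preparations 1 to 4. Neither gene was found in 25 cells (7, 9, 8 and 1), Gfra1 without Kit in 13 (3, 7, 1 and 2) and both in 8 (2, 1, 2 and 3). Preparation 4 of Q4 was thus mostly Kit-positive, and preparations 2 and 3 were mostly without Kit. The median number of genes per cell was 5929 in cells with Kit alone, 5741 with both, 5378 with Gfra1 alone and 4831 with neither. A gene listed at 0 may have been missed in a cell with few genes, and the part of detection in these classes was not tested.

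The shares of cells in 10 classes were tested by an exact permutation test, two-sided, of which quartile of each preparation is called Q4, with p-values adjusted over the 10 and 0.0039 as the smallest p it can give. Kit without Gfra1 was found in 6 of 18, 3 of 20, 4 of 15 and 13 of 19 Q4 cells in preparations 1 to 4, or 35.9 ± 22.99% (SD, n = 4) against 10.9% in Q1 to Q3. Q4 was higher in 4 of 4 preparations (exact permutation p = 0.0039; adjusted p = 0.0391). Without preparation 4 this difference was 14.4 percentage points in place of 24.9. Gfra1 was found in 28.5 ± 8.36% of Q4 cells against 65.8% (exact permutation p = 0.0117; adjusted p = 0.0391). Gfra1 without Kit was found in 17.2% against 50.98% (exact permutation p = 0.0156; adjusted p = 0.0391). Crabp1 was found in 97.1 ± 3.44% against 85.6% (exact permutation p = 0.0117; adjusted p = 0.0391).

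The shares of single marker genes other than Gfra1 and Crabp1 did not pass at 1 FPKM. Upp1 was found in 78.8 ± 4.53% of Q4 cells against 60.6% (exact permutation p = 0.0313; adjusted p = 0.0521). Kit was found in 8 of 18, 4 of 20, 6 of 15 and 16 of 19 cells, or 47.2 ± 26.9% against 25.8% (exact permutation p = 0.0313; adjusted p = 0.0521), and Q4 was higher in 3 of 4. Without preparation 4 the Kit difference was 11.5 percentage points in place of 21.4. Sohlh1 was found in 89.9% against 83.5% (exact permutation p = 0.254) and Stra8 in 68.97% against 65.8% (exact permutation p = 0.340). Cells with neither Gfra1 nor Kit made up 35.6% against 23.2%, and cells with both 11.3% against 14.9%. In Q3 alone, cells with neither gene made up 36.6% and Sohlh1 was found in 89.7%, so Q4 was level with Q3 in these shares. With every value above 0 FPKM scored as present, Kit (52.8% against 35.5%) and cells with both genes (15.3% against 23.98%) also passed (exact permutation, adjusted p = 0.0391 for each). With any 1 preparation left out, no share passed the adjusted threshold; the smallest p that 3 preparations allow is 0.0156.

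The classes differed in the other genes they carried, given here as descriptions of cells. Among the 13 cells with Gfra1 alone, Etv5 was present in 9, Dusp6 in 10, Tcl1 in 9 and Dmrtb1 in 0. Among the 26 cells with Kit alone, Etv5 was present in 4, Nanos3 in 11, Mki67 in 23 and Stra8 in 25. The 8 cells with both genes had Stra8 in 8 and Etv5 in 2. The 25 cells with neither gene had Nanos3 in 22, Upp1 in 21 and Stra8 in 10. Cells with both Gfra1 and Kit thus resembled Kit cells in Stra8, and most cells with neither gene carried Nanos3 and Upp1. Upp1 was also common in the other classes, in 10 of 13 cells with Gfra1 alone, 19 of 26 with Kit alone and 7 of 8 with both.

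Stra8 itself was split in Q4: 34 cells had at least 100 FPKM, 16 had 1 to 100 and 22 had under 1, of which 18 were listed at 0. Of the 34 cells with Kit, 33 had at least 1 FPKM of Stra8 and 30 had at least 100. Of the 38 without Kit, 17 had at least 1 FPKM and 4 had at least 100. In brighter cells with Kit, 10 of 17 in Q1, 12 of 19 in Q2 and 19 of 23 in Q3 had at least 100 FPKM of Stra8. Among cells without Kit the numbers were 8 of 62, 16 of 59 and 8 of 48. Strong Stra8 was thus found mostly in Kit-positive cells in Q4, with 4 exceptions.

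Within preparations, Kit-positive Q4 cells exceeded Kit-negative ones by 6.46 ± 1.17 in Stra8, 4.50 ± 0.76 in Cited1 and 2.08 in Crabp1 (mean ± SD over 4 preparations, log2(FPKM + 1)). They were lower by 3.88 ± 0.89 in Nanos3, 2.82 in Pxt1, 2.81 in Enc1, 2.57 ± 0.44 in Sdc4, 1.93 in Etv5 and 1.46 in Upp1. Each of these signs was the same in all 4 preparations, whereas Sohlh2 (2.04) and Mki67 (1.90) were higher in 3 of 4. Stra8 and Cited1 are among the genes listed as most like Kit across these same cells. That list required a positive correlation in each preparation, so their shared sign adds nothing to it. Preparation 2 had 4 Kit-positive Q4 cells and preparation 4 had 3 Kit-negative ones. Kit-positive cells also held more genes, 5915 against 4904 per cell; the part of gene number in these differences was not tested.

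Across the 72 Q4 cells the genes fell along these lines, with Pearson r computed on log2(FPKM + 1) centred within preparations. Cells of a preparation share animals, chip and library preparation, so r is a description. Among the 5 genes most like Kit were Stra8 (r = 0.74), Cited1 (0.61), Homer2 (0.60) and the histone gene Hist1h2bj (0.59). With the number of genes per cell removed, Kit and Stra8 had r = 0.69. The r of Kit and Stra8 was 0.70, 0.68, 0.68 and 0.92 in preparations 1 to 4 of Q4, and 0.46, 0.24 and 0.52 over the cells of Q1, Q2 and Q3. Among the 5 most like Stra8 were Kit, Cited1 (0.65), Calm2 (0.61) and Dbi (0.59).

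Across the Q4 cells, Upp1 and Kit had r = -0.18. The 5 genes most like Upp1 were Pxt1 (0.60), Brdt, a bromodomain protein of the male germ line (0.58), Sdc4 (0.57), Cmip (0.56) and Gsto1 (0.56). Sdc4 also went with Enc1 (0.63), Pxt1 (0.62) and Nanos3 (0.55), and Upp1 with Nanos3 (0.54). Upp1 and Sdc4 had r = 0.29, 0.22 and 0.03 in Q1, Q2 and Q3. Cited1 ran against Sdc4 (r = -0.63) and Enc1 (-0.58), where Q1 to Q3 gave -0.24, -0.25 and -0.37 for Sdc4 and -0.06, -0.06 and 0.06 for Enc1. Kit also ran against Sdc4 in Q4 (r = -0.41), but more so in Q3 (-0.58), with -0.11 in Q1 and -0.30 in Q2. Gfra1 had weaker partners, led by Arl6 (0.45) and Helb (0.43), which were present in 19 and 22 of the 72 cells. The 72 cells include the 6 with low Sdc4, which had little or no Upp1, Enc1 and Nanos3. The SD of Sdc4 over cells was 2.28 in Q4 and 0.75, 0.65 and 0.90 in Q1, Q2 and Q3. The part of these 6 cells and of this wider range in r was not tested, nor were the differences in r between quartiles.

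**Figure D5:**
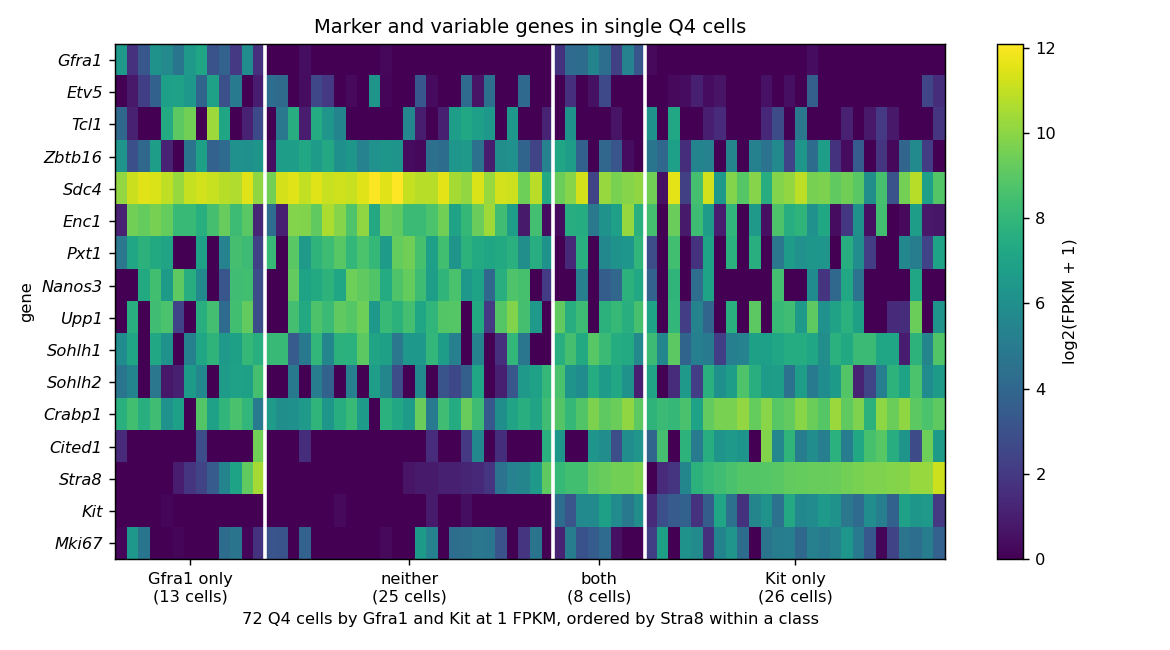
The 72 Q4 cells (columns) in 4 classes by Gfra1 and Kit at 1 FPKM, ordered by Stra8 within a class, with log2(FPKM + 1) of 16 genes (rows) as colour. Stra8 and Cited1 are brightest in the 8 and 26 cells with Kit, and Nanos3 and Enc1 are brightest in the 13 and 25 cells without it.

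The promoters of the marker genes are shown because Kit and Stra8 moved together across Q4 cells, Upp1 did not, and Sdc4 had low values in some Q4 cells. Sequences are from RefSeq on build GRCm38.p6, in the 250 bases before each annotated start, 5′ to 3′ on the gene's strand, and they were searched on both strands for AGGTCA, a core word bound by retinoic acid receptors and other nuclear receptors, and for CANNTG, the E-box of basic helix-loop-helix factors such as SOHLH1. Matches are in capitals, and no printed match overlaps another. Of 32851 promoter windows of this length, 66.2% held CANNTG and 14.02% held AGGTCA, with 1.36% holding 2 or more of the latter. The Stra8 window, chr6:34920698-34920947, lies inside the Stra8 gene, which starts at 34920163, and wholly in an annotated exon. It is thus not upstream of the gene, unlike the other windows printed. For Stra8, 2 stretches of 30 bases around its 2 AGGTCA matches are printed. The Kit window is printed up to its first annotated exon.
Stra8 first stretch, chr6:34920742-34920771, plus strand: gatggggtgaaaAGGTCAtcttgctccttc
Stra8 second stretch, chr6:34920898-34920927, plus strand: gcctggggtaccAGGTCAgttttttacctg
Kit, chr5:75574737-75574915, plus strand: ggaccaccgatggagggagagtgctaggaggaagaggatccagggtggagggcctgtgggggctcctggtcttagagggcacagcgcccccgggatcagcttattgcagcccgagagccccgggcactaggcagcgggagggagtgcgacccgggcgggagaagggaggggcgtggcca
Crabp1, chr9:54764498-54764747, plus strand: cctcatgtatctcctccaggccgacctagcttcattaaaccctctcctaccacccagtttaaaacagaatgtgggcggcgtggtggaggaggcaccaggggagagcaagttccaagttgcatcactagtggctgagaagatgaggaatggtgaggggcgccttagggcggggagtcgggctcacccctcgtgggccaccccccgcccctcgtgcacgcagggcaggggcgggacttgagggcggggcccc
Upp1, chr11:9117758-9118007, plus strand: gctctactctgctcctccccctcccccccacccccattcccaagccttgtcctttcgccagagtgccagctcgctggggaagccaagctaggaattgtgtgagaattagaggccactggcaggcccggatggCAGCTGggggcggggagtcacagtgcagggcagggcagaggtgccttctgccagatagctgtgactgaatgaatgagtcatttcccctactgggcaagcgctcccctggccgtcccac
Sdc4, chr2:164443189-164443438, minus strand: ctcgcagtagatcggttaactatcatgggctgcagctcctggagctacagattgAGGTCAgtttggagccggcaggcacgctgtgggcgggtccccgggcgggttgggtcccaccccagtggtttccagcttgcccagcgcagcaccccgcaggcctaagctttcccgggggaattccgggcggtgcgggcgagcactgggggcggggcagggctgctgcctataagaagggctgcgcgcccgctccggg
The Stra8 window, inside the gene, thus held 2 AGGTCA matches and no CANNTG. The Sdc4 window held 1 AGGTCA, and the Upp1 window held 1 CANNTG. The Kit and Crabp1 windows held neither word. Upp1 has 3 annotated starts, whose windows held 1, 1 and 2 CANNTG. A match describes letters, and no binding was measured.

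RNA of other testis cell types was sparse in Q4. A match to another type required 3 or more of that type's marker genes, and 50% or more of them, at 5 FPKM or above in a cell, which 6 of 72 Q4 cells did, against 13 in Q1, 8 in Q2 and 11 in Q3. Of the Q4 cells 3 matched pachytene spermatocytes, 2 spermatids, 2 macrophages and 1 peritubular myoid cells, with some cells matching more than 1 list, and none matched Sertoli, Leydig, endothelial or erythroid cells. The summed markers of peritubular cells reached 3605 FPKM in Q4 and 90.2 in Q1 to Q3, with a median of 0 in both. Those of macrophages reached 4333 FPKM in Q4 and 10176 in Q1 to Q3, again with medians of 0. Summed pachytene markers ran from 0.371 to 827 FPKM in Q4 (median 63.02) and from 0 to 317 in Q1 to Q3 (median 49.96). Summed spermatid markers ran from 0 to 558 FPKM (median 9.50) and from 0 to 653 (median 27.8). Amh, Cldn11, Inha and Tsx of Sertoli cells, all Leydig markers but Star, and Pecam1 and Esam of endothelium were listed at 0 in all 72 cells. Without all cells that matched another type, Etv5, Tcl1 and Gfra1 still passed, but the genes called higher in Q4 went from 29 to 9. Of the 10 genes with the largest increases, Upp1, Bnip3 and Crabp1 passed there, and Cited1, Crip2, Lonrf3, Gps2, Ndufa12, Aurka and Ndrg4 did not, with limma adjusted p from 0.0672 to 0.106.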

How the data were processed

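Values were taken from 1 deposited table of 23354 gene names in 300 single cells. Its header names no unit. The values were read as FPKM because the submitters' processing notes name Cufflinks, together with TopHat, FastQC and Picard, and the builds mm10 and GRCm38, all without versions. The deposited FPKM values carry no read counts, so no count model was applied and the depth of a cell is known only relative to other cells. Per the labels' protocols, SMARTer chemistry made the cDNA without a strand mark, so that overlapping antisense genes cannot be told apart. A value of 0 says only that a gene is listed at 0. The number in a sample's title was read as its preparation. Id4 and mitochondrially encoded genes were left out.

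Per preparation and quartile, log2(FPKM + 1) was averaged over the 15 to 22 cells, which gave 16 means a gene, and the tests covered the 10411 genes that reached 1 FPKM in 30 or more cells. limma 3.58.1 in R 4.3.3 was fitted with quartile and, as a block, preparation, with trended and robust variances, and p-values were adjusted by Benjamini-Hochberg with a threshold of 0.05. The SD over cells, less a lowess trend on the mean, was fitted in the same way. Differences on this scale understate the change of low genes. With the block, limma p-values measure how far differences between quartiles vary from preparation to preparation, over these 4 preparations. Level shifts shared by all quartiles of a preparation are taken out. Shares of cells and genes per cell were tested by exact two-sided permutation in Python 3.11.15. Same-numbered means come from the same pooled animals and chip, and their deviations around the quartile averages had correlations of 0.0112 to 0.360 over 24 pairs (median 0.129).

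The members, marker genes and gene lists were chosen with earlier results of these data known. Named genes were a panel of 17 markers, the 20 most abundant and 20 most variable genes of Q4, the 10 largest called differences per direction, up to 4 genes of each list by smallest p, and the 5 genes most like Kit, Stra8, Upp1 and Gfra1. Some genes that the rule names are not reported here. Predicted genes, code names and names turned into dates were skipped. Genes named in the descriptions of the cells with low Sdc4, of Kit classes and of pairs were added after their values were seen. Alternatives were the pseudocount, the filter, the scaling, the block, a covariate for genes per cell, and each preparation left out. Leaving out cells that match another cell type was chosen after seeing the data. On simulated data of 10411 genes, the Q4 comparison with Q1 to Q3 recovered 81 of 100 genes changed by 2 on the log2 scale and 25 of 100 changed by 1, and the comparison with Q3 recovered 65 and 16. The test of spread recovered 179 of 200 genes widened 1.8 times. Of 10011 unchanged genes, the comparison with Q1 to Q3 called 3, that with Q3 called 1 and the test of spread called 20. Genes of low mean level were not changed, so the recoveries do not cover genes such as Kit and Neurog3.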

Additional observations from a re-analysis of the deposited data

Results flagged for a closer look

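Of 131 values checked over the 4 preparations of Q4, 6 had 1 preparation apart from the other preparations by more than Dixon's 95% critical value, which chance alone exceeds in about 1 of 20 sets. The Q4 level of Lonrf3 was 4.38 in preparation 2, below 5.64, 5.71 and 5.81 in the other preparations. Ndrg4 was 6.53 in preparation 4, above 4.83, 4.96 and 4.80. Its call as higher in Q4 was lost with any 1 preparation left out, not only preparation 4. Dusp6 was 2.98 in preparation 2, above 0.91, 1.10 and 0.91, and below the averages of Q1 to Q3 in all 4 preparations (4.42 to 4.71), although the mean of Q3 alone was 3.18. The meiotic gene Tex12 was 7.49 in preparation 1, below 8.01, 7.99 and 7.96. Ndufa1, a subunit of NADH dehydrogenase, was 7.71 in preparation 4, above 6.58, 6.68 and 6.61. The SD over Q4 cells of Nubp2 was 2.41 in preparation 4, below 3.74, 3.54 and 3.68.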

How the results depend on the processing

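The count of genes called between Q4 and Q1 to Q3 was 123, and it became 34 on the log2 of mean FPKM, 31 with no filter on low values, 9 with no replicate block (the pairing by preparation dropped), 59 without cells matching another cell type, and 18 to 73 without single preparations. It was 92 with genes per cell as a covariate together with the replicate block, 113 with a filter of 100 cells, 103 with median centring and 119 with a pseudocount of 0.1. Of the 9 genes without the block, 9 were among the 123. Against Q3 the count of 1 became 0 on the log2 of mean FPKM, with median centring, with no filter, with no replicate block and without cells matching another cell type, and 2 with a pseudocount of 0.1 (Sdc4 and AI413582, named after its values were seen), and it was 0 to 2 without single preparations. For the spread the count of 1 became 0 with no filter, with no replicate block and with a pseudocount of 0.1, 4 with no removal of the trend, and 0 to 3 without single preparations. Where limma called 0 genes, 298 to 1003 genes had an unadjusted p under 0.05. Of the 10 shares, 4 passed at 1 FPKM, 4 at 5 FPKM and 6 above 0 FPKM, where those of Kit and of cells with both genes were gained, and 0 passed without any single preparation. Ranking variable genes by the residual squared coefficient of variation left 2 of 20. The causes of these changes were not tested, except that fewer preparations enter where one is left out.

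The 3 genes that limma did not call changed sign between Q4 and Q1 to Q3 were Nanos3, Ddx4 and Mki67. Nanos3 (0.01) was -0.61 with genes per cell as a covariate, -0.0496 with a pseudocount of 0.1 and -0.49 to 0.60 without single preparations. Ddx4 (-0.10) was 0.19 with that covariate and -0.23 to 0.16 without single preparations, and Mki67 (0.08) was -0.17 to 0.54 without single preparations. Over 65 results of this comparison under these alternatives, 626 of 775 values kept direction and side of the threshold, 130 lost the call and 11 gained it. The difference in genes per cell ran from -85.1 to -272 and did not pass in any alternative. Depth is known only relatively, and genes at few FPKM can be missed in a cell, which limits classes based on Kit and Gfra1.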
